A study of Mus musculus with 24 samples.

Results

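The 8 genes described here encode amino acid transporters of the cell surface, and they were taken by symbol: Slc7a5, Slc3a2, Slc43a1, Slc38a2, Slc38a4, Slc7a1, Slc7a2 and Slc1a5. All 8 of 8 were measured among 19937 genes, each by 1 probe set that carried no other symbol, and all 8 were tested. The muscle was the plantaris, a small ankle extensor, and 24 Affymetrix whole-transcript arrays held 4 groups of 6 mice aged 3 months. The groups were untreated wildtype mice, overloaded wildtype mice, untreated Mstn-/- mice and overloaded Mstn-/- mice, the latter 2 groups lacking myostatin, a secreted inhibitor of muscle growth. Overload was surgical, by taking out the soleus and most of the gastrocnemius of both legs under pentobarbitone (50 mg/kg), and the plantaris of 1 leg was used. Controls had no operation, so surgery and overload cannot be told apart. For strain, sex, Mstn allele, length of overload and array batches the sources used here give nothing.

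Muscle takes up amino acids through families of carriers that differ in substrate and driving force. Slc7a5 (LAT1) is the light chain of an exchanger that brings leucine and other large neutral amino acids into the cell against glutamine, and Slc3a2 (CD98 heavy chain) is the glycoprotein that carries it to the membrane. Slc43a1 (LAT3) lets branched-chain amino acids and phenylalanine pass down their gradient without sodium. Slc38a2 (SNAT2) and Slc38a4 (SNAT4) are sodium-coupled carriers of alanine, glutamine and other small neutral amino acids, the former known to be induced when amino acids are scarce. Slc7a1 (CAT1) and Slc7a2 (CAT2) carry arginine, lysine and ornithine, and Slc1a5 (ASCT2) exchanges glutamine and other small neutral amino acids. Leucine and arginine that enter the cell are known activators of mTORC1, the kinase complex that drives protein synthesis.

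Array medians of intensity ran from 139 to 147. The 8 muscle fibre markers (among them Acta1, Ckm and Ttn) were above the low-signal level of 98.9 in every group. Mstn itself, which checks the genotype labels, had intensities from 1099 to 1351 in untreated wildtype and from 370 to 646 in untreated Mstn-/- muscle. In the overloaded groups its ranges overlapped, at 291 to 395 in wildtype and 234 to 404 in Mstn-/-, so it does not check those labels. Whether its probe set lies within the deletion was not settled here, so this check is partial. All differences below are log2 differences between group means from limma fitted to 14499 genes on all arrays. A gene is called changed at a Benjamini-Hochberg adjusted p under 0.05 over those genes. The 8 genes were chosen with earlier results of these data known, so values over all tested genes are set beside theirs as a description.

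Overload in wildtype muscle asked how loading changed the transporters when myostatin was present. Slc7a5, Slc3a2, Slc7a1, Slc1a5 and Slc38a2 rose, Slc38a4 and Slc43a1 fell, and Slc7a2 was not called. Thus 7 of 8 were called, where 65.9% of all tested genes were called, so the count itself is close to the background. Their median size of change, 0.52 on the log2 scale, stood beside 0.24 over all tested genes. On 6 of the 8 the arrays of the groups did not overlap, against 43% of all tested genes. Changes of at least 2-fold were confined, among the 8, to the falls of Slc38a4 and Slc43a1, and 2.28% of all tested genes fell that far.

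Overload in Mstn-/- muscle again called 7 of 8 genes, where 60.6% of all tested genes were called. Here only 3 rose, namely Slc7a5, Slc3a2 and Slc1a5, and 4 fell, namely Slc43a1, Slc38a4, Slc7a2 and Slc38a2. Slc7a1 was not called. The median size of change was 0.58, beside 0.20 over all tested genes. The arrays did not overlap for 6 of 8, against 39.9% of all tested genes. The falls of Slc43a1 and Slc38a4 again exceeded 2-fold, as did the falls of 0.731% of all tested genes.

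Lack of myostatin in untreated muscle went with higher transcripts of 5 of these 8 transporters. Slc43a1, Slc7a2, Slc38a4, Slc38a2 and Slc3a2 were higher in Mstn-/- and none of the 8 was called lower, while 11.1% of all tested genes were called higher and 10.2% lower. In all 5 of 8 were called, against 21.3% of all tested genes in either direction. The arrays did not overlap for 4 of 8, against 12% of all tested genes. The median difference was 0.39 on the log2 scale, beside -0.01 over all tested genes. Only 0.462% of tested genes had a larger difference than Slc43a1 in this comparison, and 0.572% a larger one than Slc7a2.

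Under overload Slc38a4, Slc43a1 and Slc7a2 were higher in Mstn-/- than in wildtype muscle and Slc7a1 was lower, so 4 of 8 were called where 36.5% of all tested genes were called. The arrays did not overlap for 2 of 8, Slc38a4 and Slc43a1, and for 15.5% of all tested genes. Whether the response to load depended on genotype was tested directly as an interaction. It was called for 5 of 8 genes (Slc7a2, Slc38a2, Slc7a1, Slc43a1 and Slc7a5), against 17.4% of all tested genes. All 5 had a lower response in Mstn-/- muscle, that is a smaller rise, a larger fall or a fall in place of a rise, where 8.44% of all tested genes were called lower and 8.92% higher. The comparisons share arrays: both genotype differences and both overload responses enter the interaction.

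**Figure D1:**
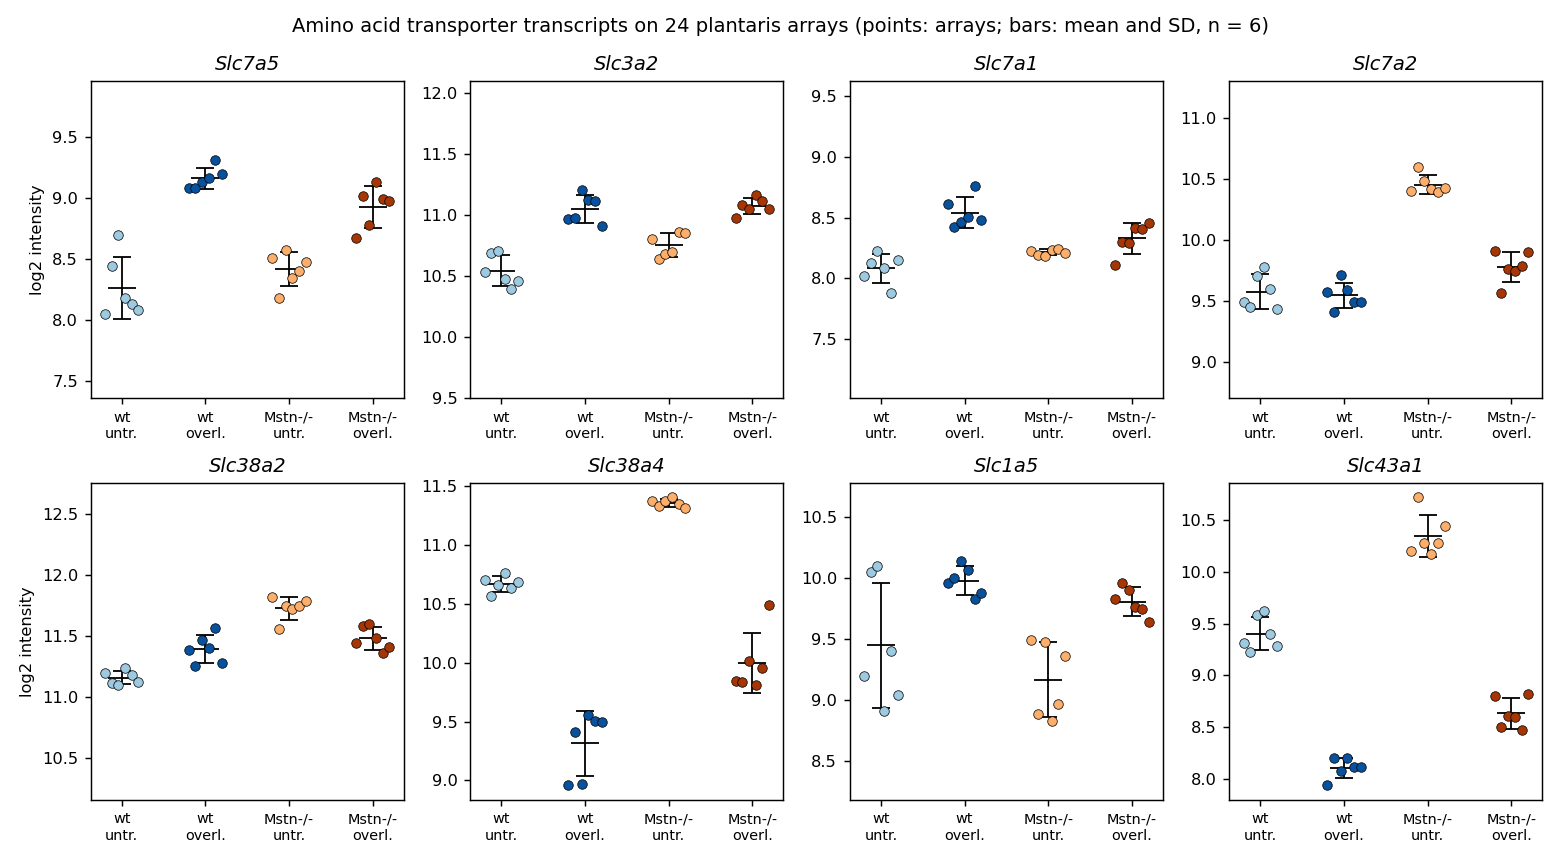
Log2 intensity of each of the 8 transporter transcripts on every array, by group (wt, wildtype; untr., untreated; overl., overloaded); points are arrays, bars the mean and SD of 6, and each panel has its own vertical axis. Slc38a4 and Slc43a1 form 4 separate groups with the highest level in untreated Mstn-/- muscle, while Slc7a5 and Slc3a2 are highest in the overloaded groups.

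**Figure D2:**
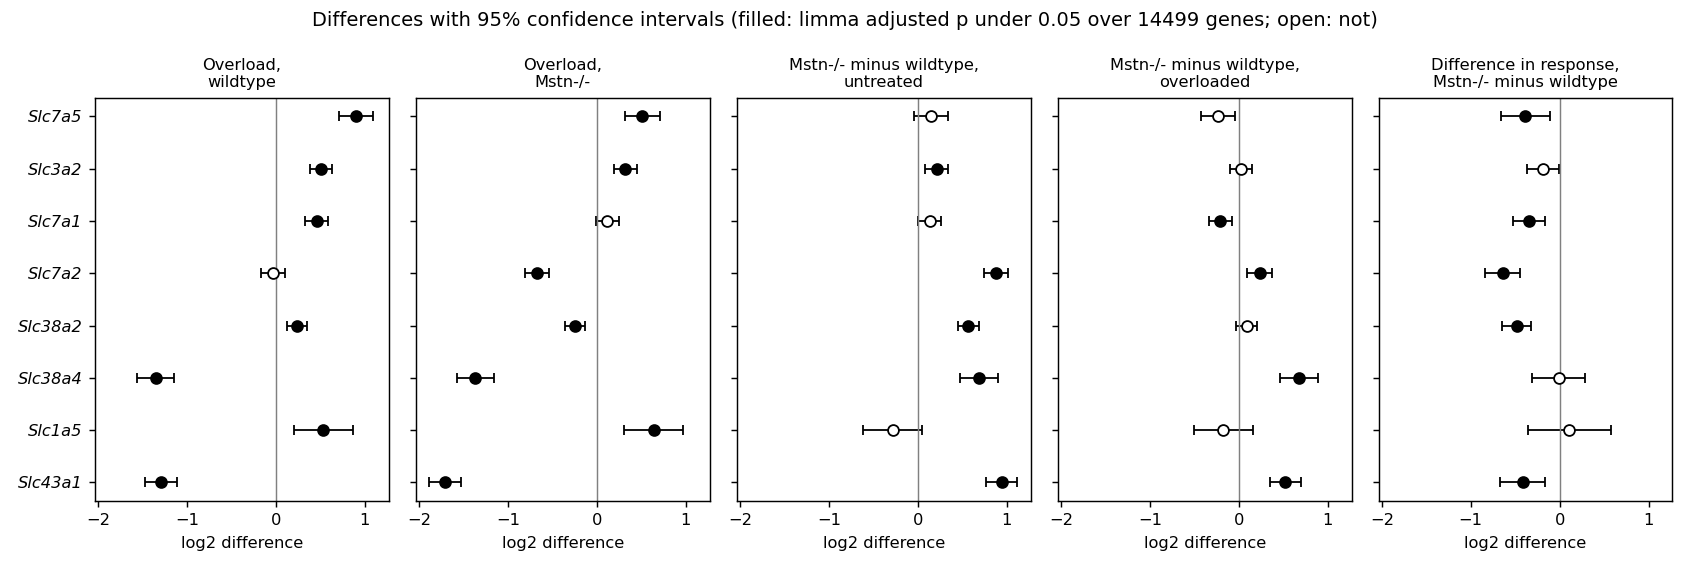
Log2 differences of the 8 transcripts in the 5 comparisons with 95% confidence intervals from limma; filled points passed an adjusted p of 0.05 over 14499 genes and open points did not. The falls of Slc43a1 (-1.29 and -1.71) and Slc38a4 (-1.35 and -1.37) under overload are the largest among the 8, and the called interaction values all lie left of 0.

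Slc7a5 and Slc3a2, the subunits of the leucine exchanger, rose together under overload in both genotypes. Slc7a5 had intensities of 265 to 416 (median 285) in untreated wildtype and 542 to 635 (median 567) in overloaded wildtype muscle. In Mstn-/- it ran from 291 to 382 (median 348) without overload and from 408 to 561 (median 506) with it. Within each genotype the overloaded arrays were all above the untreated ones, and within each condition the genotypes overlapped. The rise was 1.86-fold in wildtype (log2 0.90 ± 0.09, SE, n = 6 per group, limma adjusted p = 4.2e-09) and 1.43-fold in Mstn-/- (log2 0.51 ± 0.09, adjusted p = 4.2e-05).

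Slc3a2 ran from 1345 to 1668 (median 1450) in untreated and from 1924 to 2352 (median 2108) in overloaded wildtype muscle. The Mstn-/- arrays ran from 1590 to 1859 (median 1716) and from 2016 to 2298 (median 2144). Again every overloaded array exceeded every untreated array of its genotype, and the overloaded groups lay on each other. It rose 1.42-fold in wildtype (limma adjusted p = 4.71e-08), while the Mstn-/- groups differed 1.25-fold (adjusted p = 6.39e-05). Without overload Slc3a2 was 1.16-fold higher in Mstn-/- (log2 0.21 ± 0.06, SE, limma adjusted p = 0.014), with overlapping arrays. For Slc7a5 that difference was 0.15 with a 95% confidence interval from -0.04 to 0.34.

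The light chain rose more than the heavy chain. The log2 difference between Slc7a5 and Slc3a2 on the same array shifted up by 0.39 with overload in wildtype (n = 6 per group, exact permutation p = 0.00433, two-sided, 0.00577 adjusted over 16 such tests on 4 gene pairs). In Mstn-/- muscle the shift was 0.19 (exact permutation p = 0.0238, adjusted 0.0254). Under overload it was 0.26 lower in Mstn-/- than in wildtype (shift -0.26, exact permutation p = 0.00649, adjusted 0.00799). The rise of Slc7a5 was itself smaller in Mstn-/- by 0.39 (interaction -0.39 ± 0.13, SE, limma adjusted p = 0.0452). That call is marginal: it was lost without a filter on low signal (adjusted p = 0.061) and when any 1 of 18 of the 24 arrays was left out (adjusted p from 0.0501 to 0.0861). For Slc3a2 the interaction was -0.19 with a 95% confidence interval from -0.36 to -0.01 and an adjusted p of 0.148.

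Slc43a1, the facilitative carrier of branched-chain amino acids, moved opposite to Slc7a5 under load. Its intensity ran from 599 to 785 (median 655) in untreated wildtype and from 246 to 295 (median 278) in overloaded wildtype muscle. Among Mstn-/- arrays it ran from 1153 to 1683 (median 1241) without overload and from 357 to 453 (median 389) with it. No group overlapped another, and the order from high to low was untreated Mstn-/-, untreated wildtype, overloaded Mstn-/- and overloaded wildtype. It fell 2.45-fold in wildtype (log2 -1.29 ± 0.09, SE, limma adjusted p = 9.98e-13) and 3.27-fold in Mstn-/- (log2 -1.71 ± 0.09, adjusted p = 3.46e-14). Lack of myostatin went with a 1.92-fold higher level without overload (limma adjusted p = 1.05e-08) and a 1.44-fold higher level under it (adjusted p = 3.11e-05). The fall was larger in Mstn-/- by 0.42 on the log2 scale (interaction -0.42 ± 0.12, SE, adjusted p = 0.0177).

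The 2 leucine carriers were also set against each other on the same arrays. The log2 difference between Slc7a5 and Slc43a1 shifted up by 2.19 with overload in wildtype and by 2.22 in Mstn-/- muscle. Untreated Mstn-/- arrays had it 0.79 below untreated wildtype (shift -0.79). Each of these shifts had an exact permutation p of 0.00216 (n = 6 per group, two-sided, the smallest possible with these group sizes, adjusted 0.00314). For the overload shifts that p was bound to come out. The overloaded arrays of each gene already lay apart from the untreated ones, in opposite directions. It therefore adds no support to the single-gene results.

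Slc38a4, the sodium-coupled carrier SNAT4, had nearly the same pattern as Slc43a1. Its intensity ran from 1518 to 1741 (median 1635) in untreated and from 497 to 753 (median 701) in overloaded wildtype muscle. Mstn-/- arrays ranged from 2556 to 2718 (median 2639) and from 900 to 1440 (median 957). The untreated groups were tight, with SDs of 0.07 and 0.03 on the log2 scale, the overloaded groups spread more, with SDs of 0.28 and 0.26, and no group overlapped another. It fell 2.56-fold in wildtype (limma adjusted p = 1.22e-11) and 2.58-fold in Mstn-/- (adjusted p = 2.65e-11). The fall was close to equal in size, with an interaction of -0.01 and a 95% confidence interval from -0.31 to 0.29. In Mstn-/- it was 1.61-fold higher without overload (limma adjusted p = 2.11e-05) and 1.60-fold higher under it (adjusted p = 1.25e-05).

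Slc38a2, the carrier SNAT2, is the neighbour of Slc38a4 on chromosome 15, with 0 protein-coding genes between them in the RefSeq annotation, and it behaved differently. Its intensity ran from 2187 to 2407 (median 2272) in untreated and from 2441 to 3026 (median 2686) in overloaded wildtype muscle, without overlap. Mstn-/- values ran from 3004 to 3606 (median 3428) without overload and from 2622 to 3093 (median 2823) with it, and here the groups overlapped. It rose 1.18-fold in wildtype (log2 0.23 ± 0.06, SE, limma adjusted p = 0.000658) and fell 1.19-fold in Mstn-/- (log2 -0.25 ± 0.06, adjusted p = 0.000474). The responses differed by -0.48 ± 0.08 (SE, limma adjusted p = 0.00016). Untreated Mstn-/- muscle had 1.48-fold more than untreated wildtype (limma adjusted p = 4.04e-08). Under overload the difference was 0.09 with a 95% confidence interval from -0.03 to 0.20. The log2 difference between Slc38a2 and Slc38a4 shifted up by 1.59 with overload in wildtype and by 1.12 in Mstn-/- (n = 6 per group, exact permutation p = 0.00216 each, adjusted 0.00314). In wildtype that p was bound to come out, since both genes had separate arrays and moved in opposite directions, so it adds no support.

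RefSeq promoter windows, from 250 bases before to 50 after an annotated start on mouse build GRCm38.p6, were found for 5 of the 8 genes. Those of Slc43a1 (chr2:84840073-84840372, plus strand), Slc38a4 (chr15:97055907-97056206, minus strand, the first of its 3 listed starts) and Slc38a2 (chr15:96699679-96699978, minus strand) are shown because the former 2 genes fell over 2-fold under overload in both genotypes, while the latter, next to Slc38a4, rose in wildtype and fell 1.19-fold in Mstn-/-. Each is written 5′ to 3′ on the strand of the gene. Capitals mark matches, on either strand, to CACGTG (E-box), TGATGNAAN (core of the amino acid response element), GTAAACA (FoxO motif), TATAAA (the core promoter element of that name, called the TATA box below) or ATTGG (the inverted CCAAT box, bound by NF-Y), which do not overlap in these windows.
Slc43a1: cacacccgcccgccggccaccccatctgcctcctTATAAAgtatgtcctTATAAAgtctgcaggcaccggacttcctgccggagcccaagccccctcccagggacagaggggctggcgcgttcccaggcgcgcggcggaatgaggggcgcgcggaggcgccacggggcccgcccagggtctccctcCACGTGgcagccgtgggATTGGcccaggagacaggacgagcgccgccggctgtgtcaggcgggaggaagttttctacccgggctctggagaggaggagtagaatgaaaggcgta
Slc38a4: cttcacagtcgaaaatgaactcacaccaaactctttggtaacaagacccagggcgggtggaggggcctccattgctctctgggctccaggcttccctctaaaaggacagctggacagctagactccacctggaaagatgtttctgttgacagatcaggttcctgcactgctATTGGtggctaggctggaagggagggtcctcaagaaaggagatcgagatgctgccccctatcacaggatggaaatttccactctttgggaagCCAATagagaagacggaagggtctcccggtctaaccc
Slc38a2: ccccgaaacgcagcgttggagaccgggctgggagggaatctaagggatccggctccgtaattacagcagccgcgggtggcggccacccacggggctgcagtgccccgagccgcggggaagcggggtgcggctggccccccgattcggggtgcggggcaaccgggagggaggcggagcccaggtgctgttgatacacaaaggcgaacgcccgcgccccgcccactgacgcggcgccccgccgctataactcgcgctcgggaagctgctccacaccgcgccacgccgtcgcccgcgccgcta
The Slc43a1 window held 1 match to the E-box, 1 to the inverted CCAAT box and 2 to the TATA box. The Slc38a4 window held 2 matches to the inverted CCAAT box, and the Slc38a2 window held none of the 5 motifs. Both TATA box matches of Slc43a1 lay before its E-box match and so farther from the annotated start. Of the 2 Slc38a4 matches, 1 lay before and 1 after the annotated start. These names mark matches of letters only, and whether they act as promoter elements was not tested. Among all 32851 windows of this length, 7.15% held the E-box, 37.4% the inverted CCAAT box and 13.6% the TATA box. The amino acid response core was in 3.95% and the FoxO motif in 3.65% of all windows and in none of the 8 windows of the 5 genes. Sequence outside the windows was not searched, and Slc7a5, Slc7a2 and Slc1a5 had no window, so absence from the genes is not shown. The G and C content was 67.7% for Slc43a1, 53% for Slc38a4 and 73% for Slc38a2.

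The cationic carriers Slc7a1 and Slc7a2 diverged. Slc7a1 ran from 235 to 300.0 (median 275) in untreated and from 343 to 434 (median 360.1) in overloaded wildtype muscle, without overlap. In Mstn-/- it ran from 291 to 303 (median 298) without overload and from 276 to 352 (median 327) with it, and the untreated arrays lay inside the range of the overloaded ones. It rose 1.37-fold in wildtype (log2 0.46 ± 0.06, SE, limma adjusted p = 4.65e-07), while in Mstn-/- the difference was 0.11 with a 95% confidence interval from -0.02 to 0.24 (adjusted p = 0.117). The responses differed by -0.34 ± 0.09 (SE, limma adjusted p = 0.00854). Under overload Slc7a1 was 1.16-fold lower in Mstn-/- (adjusted p = 0.0107), with overlapping arrays.

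Slc7a2 ran from 690.4 to 877 (median 745) in untreated and from 679 to 838 (median 739.6) in overloaded wildtype muscle. The Mstn-/- arrays ran from 1342 to 1546 (median 1370) without overload and from 758 to 960 (median 875) with it. Untreated Mstn-/- muscle stood apart from the 3 other groups, which overlapped each other. It was 1.84-fold higher there than in untreated wildtype (log2 0.88 ± 0.07, SE, limma adjusted p = 5.22e-10). It fell 1.60-fold with overload in Mstn-/- (adjusted p = 3e-09), while in wildtype the difference was -0.03 with a 95% confidence interval from -0.17 to 0.11. The responses differed by -0.64 ± 0.09 (SE, limma adjusted p = 4.06e-05), and 2.72% of tested genes had a larger such difference. Under overload Slc7a2 was 1.18-fold higher in Mstn-/- (limma adjusted p = 0.00683). The log2 difference between Slc7a1 and Slc7a2 shifted up by 0.49 with overload in wildtype and by 0.79 in Mstn-/- (n = 6 per group, exact permutation p = 0.00216 each, adjusted 0.00314).

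Slc1a5, the glutamine exchanger, rose under overload but varied most among untreated mice. Its intensity ran from 481 to 1100.4 (median 631) in untreated and from 912 to 1127 (median 1012) in overloaded wildtype muscle. Among Mstn-/- arrays it ran from 454 to 720.2 (median 574) without overload and from 796 to 997 (median 890.5) with it. The wildtype groups overlapped because of untreated replicates 2 and 3, and the Mstn-/- groups did not overlap. The SD was 0.51 in untreated wildtype and 0.31 in untreated Mstn-/-, against 0.12 in each overloaded group, on the log2 scale. The rise was 1.44-fold in wildtype (log2 0.53 ± 0.16, SE, limma adjusted p = 0.00554) and 1.56-fold in Mstn-/- (log2 0.64 ± 0.16, adjusted p = 0.00138). The genotypes were not told apart, with differences of -0.28 (95% confidence interval from -0.61 to 0.05) without and -0.17 (from -0.50 to 0.16) with overload.

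Untreated wildtype replicates 2 and 3 had the highest Slc1a5 (1059 and 1100.4), the highest Slc7a5 (348 and 416) and the highest Slc3a2 (1646 and 1668) of their group. For markers chosen for this comparison after these values were seen, they also had the highest summed signal of the 3 measured Schwann cell markers (Sox10, Mbp and Pmp22), at 9885 and 10806 against 3655 to 4104 on the other 4 arrays. Pmp22 made up most of this sum, at 8631 and 9323 against 3133 to 3593. Mbp was at 972 and 1176 against 277 to 324, and Sox10 at 283 and 308 against 195 to 245. The summed signal of 5 adipocyte markers on replicates 2 and 3 was 4942 and 5036 against 2710 to 3523. Replicates 2 and 3 were also highest, by smaller margins, for 8 fibroblast markers (16718 and 17858 against 12324 to 15975) and 12 macrophage markers (4158 and 3835 against 3041 to 3803). Without these arrays, an alternative chosen after seeing the data, Slc1a5 rose 1.79-fold, Slc7a5 2.07-fold and Slc3a2 by 0.58 on the log2 scale in wildtype (limma adjusted p = 1.29e-06, 4.43e-11 and 1.25e-08). The interaction of Slc7a5 then was -0.54 (adjusted p = 0.0012), that of Slc3a2 -0.26 (adjusted p = 0.031), and Slc7a5 was called higher in untreated Mstn-/- muscle (log2 0.31, adjusted p = 0.01).

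Slc1a5 was set against both marker sums within each group, giving 8 relations of 6 arrays. The gene and the lists were chosen after values of these same arrays were seen. Of all marker lists these had the highest within-group correlations with Slc1a5 (0.82 for Schwann cell and 0.86 for adipocyte markers). The adjustment over 8 relations does not cover that choice, so the p-values below describe these arrays and are no independent support. In untreated Mstn-/- muscle it followed the Schwann cell sum (Pearson r = 0.98, exact permutation p = 0.00972, adjusted 0.0445; Spearman rho = 0.94, exact p = 0.0167, adjusted 0.133), with r = 0.97 after leaving out the 2 arrays farthest from the median. In untreated wildtype r was 0.94 (exact permutation p = 0.0264, adjusted 0.0445; rho = 0.71, exact p = 0.136, adjusted 0.155) and -0.03 without replicates 2 and 3, on which it rests. In overloaded wildtype r was -0.79 (exact permutation p = 0.0681, adjusted 0.0908) and in overloaded Mstn-/- 0.63 (exact permutation p = 0.179, adjusted 0.179). For the adipocyte sum r was 0.95, 0.67, 0.84 and 0.89 in untreated wildtype, overloaded wildtype, untreated Mstn-/- and overloaded Mstn-/- (exact permutation p = 0.0153, 0.131, 0.0278 and 0.0208, adjusted 0.0445, 0.15, 0.0445 and 0.0445). The rank correlations of those 4 were 0.77, 0.66, 0.89 and 0.83 (exact permutation p = 0.103, 0.175, 0.0333 and 0.0583, adjusted 0.137, 0.175, 0.133 and 0.137). Leaving out the 2 farthest arrays gave 0.55, 0.23, 0.79 and 0.97. The part of these cells in the Slc1a5 values was not tested.

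**Figure D3:**
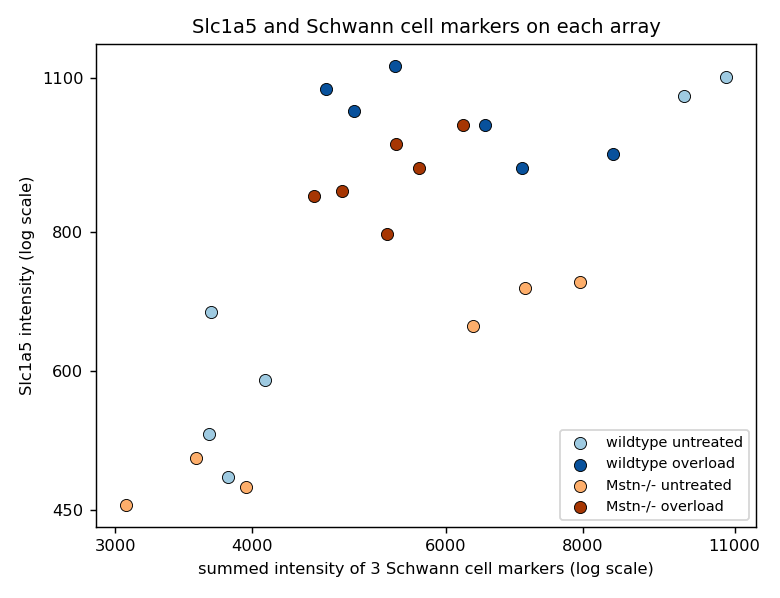
Slc1a5 intensity against the summed intensity of 3 Schwann cell markers (Sox10, Mbp and Pmp22) on each of the 24 arrays, both axes on a log scale, coloured by group. The untreated wildtype replicates at 9885 and 10806 on the horizontal axis have the 2 highest Slc1a5 values of their group (1059 and 1100.4), and the overloaded arrays, between 796 and 1127, do not lie along the same trend.

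Signals of other cell types moved with overload. All 12 of 12 macrophage markers rose in both genotypes, their summed intensity going from 3041 to 4158 in untreated to 15178 to 21929 in overloaded wildtype and from 4432 to 5643 to 10395 to 19371 in Mstn-/- muscle. Of 8 fibroblast markers 8 rose in wildtype and 7 in Mstn-/-, with sums from 12324 to 17858, 41090 to 49326, 13466 to 17000.5 and 27806 to 34026 in untreated and overloaded wildtype and untreated and overloaded Mstn-/-. Over all tested genes 30.3% rose and 35.6% fell under overload in wildtype, and 27.1% rose and 33.5% fell in Mstn-/-. None of the macrophage and fibroblast markers was below the low-signal level in any group. The summed muscle fibre markers ran from 89809 to 92347, from 72339 to 84470, from 85650 to 92295 and from 85321 to 90421 in the same order of groups. In whole muscle, fewer cells of a type and less RNA per cell cannot be told apart, and the part of macrophages and fibroblasts in the transporter changes was not tested. Macrophage and fibroblast markers also differed between the genotypes. In untreated Mstn-/- muscle 5 of 12 and 1 of 8 were higher and 0 lower, where 11.1% of all tested genes were higher. Under overload 3 of 12 and 7 of 8 were lower and 0 higher, where 19% of all tested genes were lower. Their overload response was lower in Mstn-/- for 7 of 12 and 4 of 8 and higher for 0, where 8.44% of all tested genes were lower. Slow-fibre markers differed between the genotypes as well: 7 of 8 were lower in untreated and 8 of 8 in overloaded Mstn-/- muscle. Of all tested genes 10.2% and 19% were lower in these comparisons. The slow-fibre sums ran from 8551 to 13716 in untreated wildtype and from 3020 to 4063 in untreated Mstn-/-. With overload 6 of 8 slow-fibre markers rose and 1 fell in wildtype, to sums from 15051 to 22776. In Mstn-/- 5 of 8 rose and 0 fell, to sums from 7142 to 8666. The part of fibre type in the genotype differences and overload responses of the transporters was not tested either. Of 5 lymphocyte markers 4 (Cd3g, Cd3d, Cd79a and Ms4a1) were below the low-signal level in every group.

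The genes whose log2 intensity followed each transporter most closely over the 24 arrays are given as a description, since the 4 groups that the arrays share dominate such correlations. For Slc43a1 they were Mars1, the methionyl-tRNA synthetase (r = 0.99), Ube4a (0.98) and Pnpla7 (0.98). For Slc38a4 they were Tango2, C2cd2 and Fam160a1 (0.98 each). For Slc7a2 they were Slc15a4, Rhobtb3 and Slc2a3 (0.93 each), for Slc38a2 Tgfbr1 (0.95), Itga4 and Eif6 (0.87 each). Slc7a5 was followed by Scamp5, Itga5 and Cyb5r3 (0.94 each) and Slc3a2 by the complement receptor C5ar1 (0.95), Ms4a4a and Penk (0.94 each). Slc7a1 was followed by Socs3, Qpctl and Plod3 (0.88 each), and Slc1a5 by Utrn, Pea15a (0.94 each) and Egr2 (0.93).

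Among 28 other amino acid transporter genes, of which 25 were tested, 9 rose and 6 fell under overload in wildtype muscle, where 30.3% of all tested genes rose and 35.6% fell. Slc36a4, a carrier of the PAT family, rose 2.15-fold and Slc38a10 1.70-fold. Slc16a10, which lets aromatic amino acids pass, fell 2.61-fold and the glutamine carrier Slc38a3 2.09-fold. In Mstn-/- muscle 8 rose and 6 fell, where 27.1% of all tested genes rose and 33.5% fell. Slc36a4 rose 1.93-fold there, and Slc38a1, a paralog next to Slc38a2 on chromosome 15 with 0 protein-coding genes between, rose 2.73-fold. It also rose in wildtype, by 3.00-fold, a value named after it was seen. Between the genotypes, 3 were higher and 3 lower in untreated Mstn-/- than in untreated wildtype muscle, close to the background of 11.1% and 10.2%. Of 8 mitochondrial amino acid carriers 6 fell and 0 rose in wildtype, Slc25a12 by 1.93-fold and the branched-chain carrier Slc25a44 by 1.54-fold, and 5 fell and 0 rose in Mstn-/-.

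Cytosolic aminoacyl-tRNA synthetases charge tRNAs with amino acids. Of 18 tested, 14 fell and 0 rose under overload in wildtype, where 35.6% of all tested genes fell (median log2 difference -0.24, beside -0.06 over all tested genes), with Iars down 1.90-fold and Farsb 1.57-fold. In Mstn-/- muscle 15 fell and 0 rose, where 33.5% of all tested genes fell (median -0.31, beside -0.06), Iars by 1.86-fold and Mars, listed as Mars1 in the annotation, by 1.73-fold. The log2 differences of Hars (0.09) and Gars (0.04) in wildtype and of Rars (0.06) in Mstn-/- lay above 0 and were not called. Without overload 13 were higher and 0 lower in Mstn-/-, where 11.1% of all tested genes were higher (median 0.24, beside -0.01), Yars by 1.47-fold and Mars by 1.38-fold. Under overload 10 were higher and 0 lower (median 0.20, beside -0.03), Sars by 0.61 and Rars by 0.59 on the log2 scale. The background shares of called genes were 17.5% higher and 19% lower in that comparison.

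Genes of the amino acid response through the transcription factor ATF4, of which Slc7a5, Slc3a2 and Slc38a2 are known targets, moved in both directions. Under overload in wildtype 7 of 20 rose and 7 fell, close to the background of 30.3% higher and 35.6% lower: asparagine synthetase (Asns) rose 1.67-fold and Nupr1 1.64-fold, while Chac1 fell 4.02-fold and Vldlr 2.19-fold. In Mstn-/- 4 rose and 10 fell, beside 27.1% and 33.5% of all tested genes, with Atf3 up 1.99-fold, Psat1 up 1.46-fold, Eif4ebp1 down 1.39-fold and Atf4 itself down 1.33-fold. In untreated Mstn-/- muscle Eif4ebp1 was 1.36-fold and Atf4 1.14-fold higher and Ddit3 1.26-fold lower than in wildtype, with 3 of 20 higher and 1 lower, beside 11.1% and 10.2% of all tested genes. Of 30 genes of amino acid sensing by mTORC1, 20 fell and 3 rose in wildtype (background 35.6% and 30.3%), with the Rag GTPase Rragd down 2.67-fold, Tsc1 down 1.47-fold, Sesn3 up 1.59-fold and Rragc up 1.29-fold. In Mstn-/- 17 fell and 3 rose (background 33.5% and 27.1%). Of 7 tested genes of arginine use, 0 rose and 2 fell in wildtype (background 30.3% and 35.6%), namely neuronal nitric oxide synthase (Nos1, 3.35-fold) and ornithine aminotransferase (Oat, 1.47-fold). In Mstn-/- muscle 3 of 7 rose (Nos2, Nos3 and Gatm) and 3 fell (Nos1 by 2.54-fold, Oat, and ornithine decarboxylase, Odc1), beside 27.1% and 33.5% of all tested genes. Gatm and the fall of Odc1 are named after their values were seen. Odc1 was 2.04-fold and Oat 1.32-fold higher in untreated Mstn-/- than in untreated wildtype muscle.

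**Figure D4:**
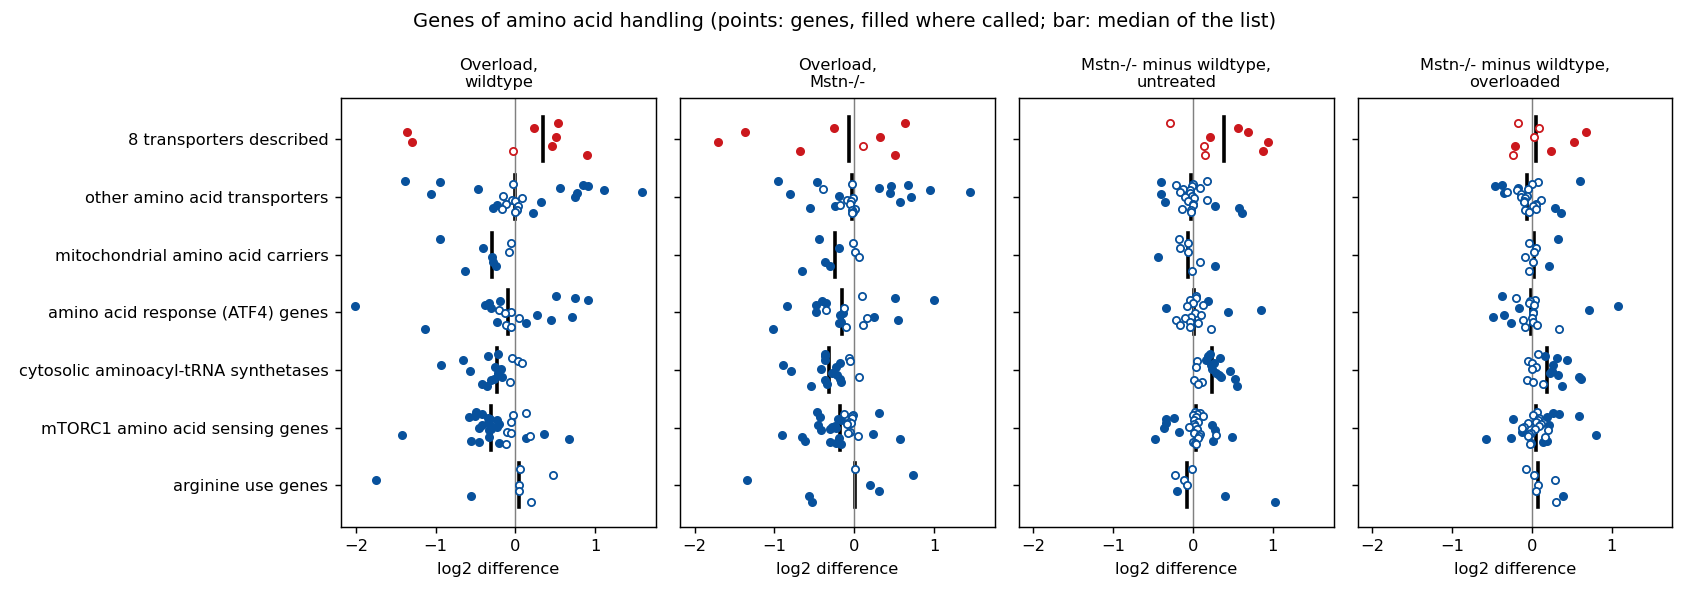
Log2 difference of every tested gene of the 8 transporters (red) and of 6 lists of amino acid handling (blue) in 4 comparisons; filled points passed an adjusted p of 0.05, open points did not, and the bar is the list's median. The synthetase medians lie at -0.24 and -0.31 under overload and at 0.24 and 0.20 for Mstn-/- against wildtype, while the other transporters spread to both sides of 0.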

How the data were processed

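The authors deposited 1 table of probe set intensities from 24 arrays, 1 array per mouse, summarised with RMA (version not given) per the submitters' processing notes. These deposited intensities lie between 4.72 and 25588.9 and so are linear, and log2 was taken without a pseudocount and without further normalization. RMA equalises the arrays, so a change in total RNA per muscle is not seen. The labels give each array its group and replicate number, and 0 sample columns were unused.

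Of 34760 probe sets, 21640 with exactly 1 gene symbol were kept, and 1321 with several and 11799 without a symbol were left out. Each gene was read from its probe set of highest mean, giving 19937 genes, of which 19855 matched the RefSeq table of GRCm38.p6 by gene ID. A gene was tested if at least 1 group mean was above the 30th percentile of those probe sets (intensity 98.9). All 4 group means of each of the 8 transporters were above it.

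Limma 3.58.1 in R 4.3.3 fitted 1 mean per group to all 24 arrays (20 residual degrees of freedom), and eBayes and Benjamini-Hochberg adjustment followed. The median standard error of a difference was 0.067. The fit was tested on simulated data. Single values used exact permutation tests, two-sided. The number of arrays limits the precision. Figures were drawn with matplotlib 3.10.9 in Python 3.11.15.

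The genes and lists were chosen with earlier results of these data known. Named are the 8 genes, Mstn, of each list up to 2 genes that rose and 2 that fell with the smallest adjusted p per comparison, and the 3 genes most correlated with each transporter. Replicate numbers are shared between groups, but deviations of same-numbered arrays correlated above 0.1 in 9 of 36 pairs (-0.41 to 0.36), so the numbers were not taken to pair the mice. Alternatives were 2 other normalizations, no filter and a stricter filter (50th percentile), the mean of all probe sets, other variance models, array weights, only the groups compared, a replicate block and leaving out each array. Leaving out untreated wildtype replicates 2 and 3 together was added after the data were seen.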

Additional observations from a re-analysis of the deposited data

Results flagged for a closer look

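In 2 of 32 groups of 6 arrays, 1 array lay far from the others by Dixon's test, which chance alone gives in about 1 in 20 groups. Slc38a2 was low on untreated Mstn-/- replicate 2, at 11.55 on the log2 scale with the nearest array at 11.72. Slc38a4 was high on overloaded Mstn-/- replicate 6, at 10.49 with the nearest array at 10.02.

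The overload response differed between the genotypes, by the interaction term of the limma fit, for 5 of the 8 transporters, against 17.4% of all tested genes. The difference, Mstn-/- minus wildtype on the log2 scale, was -0.64 for Slc7a2, -0.48 for Slc38a2, -0.42 for Slc43a1, -0.39 for Slc7a5 and -0.34 for Slc7a1. The call of Slc7a5 was marginal (limma adjusted p = 0.0452) and was lost when any 1 of 18 of the 24 arrays was left out. For Slc38a2 the response changed direction, from 0.23 in wildtype to -0.25 in Mstn-/- muscle.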

How the results depend on the processing

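The counts of called transporters moved little. Leaving out 1 array gave 7 to 7 for overload in wildtype, 7 to 8 for overload in Mstn-/-, 5 to 6 for the genotypes without overload, 4 to 5 for the genotypes under overload and 4 to 5 for the difference in response. The other settings gave 7, 7, 5 to 6, 4 to 5 and 4 to 6. Among these settings, counts of 6 came only from leaving out untreated wildtype replicates 2 and 3 together, chosen after the data were seen. Of 376 single values under the other settings, that one included, 363 kept direction and call. The call of the Slc7a5 difference in response was lost with arrays at the same median (-0.38, adjusted p = 0.0517), without a filter (adjusted p = 0.061), with array weights (-0.35, adjusted p = 0.0644) and with the replicate number as a block (-0.39, adjusted p = 0.0571), and the block changed no other call of the 8 genes. Lower Slc7a5 in overloaded Mstn-/- muscle (adjusted p = 0.0524) was called with quantile normalization (-0.27, adjusted p = 0.0243), the stricter filter (adjusted p = 0.044), the trended variance (adjusted p = 0.0492) and only the groups compared (adjusted p = 0.0241). Of 576 values with 1 array left out, 543 kept direction and call and 18, all of the Slc7a5 difference in response, lost the call. Without overloaded Mstn-/- replicate 1 Slc7a1 was called higher under overload in Mstn-/- (0.16, adjusted p = 0.0279). Without untreated wildtype replicate 3 Slc7a5 was called higher in untreated Mstn-/- (0.24, adjusted p = 0.0439), and without overloaded Mstn-/- replicate 4 it was called lower in overloaded Mstn-/- (-0.27, adjusted p = 0.0278).

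Values that changed sign were all uncalled. The Slc38a4 difference in response, -0.1118 at its lowest (without overloaded Mstn-/- replicate 6), was 0.0081 without untreated wildtype replicate 2. Without overloaded wildtype replicates 2, 4, 5 and 6 it was 0.0073, 0.0357, 0.0257 and 0.0229. Without overloaded Mstn-/- replicates 1, 2 and 4 it was 0.017, 0.0185 and 0.0239, and without untreated wildtype replicates 2 and 3 together 0.0151. With 1 array left out the Slc1a5 difference in response was 0.2177 at its highest (without untreated wildtype replicate 4), and the other settings reached 0.2239. It was -0.01 and -0.0209 without untreated wildtype replicate 2 or 3 and -0.20 without both. Without both, Slc1a5 in untreated Mstn-/- against wildtype was 0.0306. With 1 array left out Slc7a2 under overload in wildtype ran from -0.065 (without overloaded replicate 3) to 0.0095 (without untreated replicate 4), and the other settings went down to -0.084. Slc3a2 in overloaded Mstn-/- against wildtype ran from -0.002 to 0.056 with 1 array left out (overloaded wildtype replicates 6 and 3), and the other settings reached 0.0574. The cause of these changes was not tested. No transporter had another probe set of its own, so that alternative gave no value.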

Other observations

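Some other amino acid transporters also differed between the genotypes, in shares near or below the background. Of the 25 tested, 3 were higher and 3 lower in untreated Mstn-/- muscle, where 11.1% and 10.2% of all tested genes were. Under overload 3 were higher and 4 lower, where 17.5% and 19% of all tested genes were. The genes below are those with the smallest adjusted p. Slc7a8 (LAT2), a light chain that pairs with Slc3a2 as Slc7a5 does, was 1.53-fold higher in untreated (limma adjusted p = 5.79e-06) and 1.29-fold higher in overloaded Mstn-/- muscle (adjusted p = 0.00115). The glycine transporter Slc6a9 was 1.49-fold higher in untreated Mstn-/- muscle (limma adjusted p = 1.59e-06). Slc43a2 (LAT4), the paralog of Slc43a1, was 1.28-fold lower there (limma adjusted p = 4.59e-05), and Slc38a3 was 1.32-fold lower (adjusted p = 0.00471). The overload response was lower in Mstn-/- for the neutral amino acid exchanger Slc1a4, by an interaction of -0.45 (adjusted p = 0.00648), and for Slc38a10 (-0.32, adjusted p = 0.00739). It was higher for Slc16a10 (0.43, adjusted p = 0.00542) and for the glutamate transporter Slc1a1 (0.47, adjusted p = 0.0239). Among the 25 tested genes of that list 3 had a higher and 4 a lower response, where 8.92% and 8.44% of all tested genes did.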
